A study of Mus musculus with 4 samples.

Results

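The Hox genes of the 4 mouse clusters Hoxa, Hoxb, Hoxc and Hoxd were examined in lung tumours of KP mice. Every gene of the count table whose symbol joins a cluster letter to a paralogue number was taken, which gave 38 of the 39017 genes in the table: 11 of Hoxa, 10 of Hoxb, 9 of Hoxc and 8 of Hoxd. Hoxd4 was not analysed here. The 4 tumours came from male C57BL/6 mice and formed 1 group, called Control, with 1 library per tumour. The mice carried p53Fl/Fl, that is floxed Trp53, in all 4 tumours, and 1500 viral units of lenti.PGK-Cre were given into the trachea of each. The PGK promoter is active in most cell types, so Cre delivery was limited by the route and not by the promoter. The genotype label reads heterozygous fl/wt with no gene given, the names in the log2 table carry WT, and by the methods a control mouse had either no floxed Slc2a1 allele or 1 of them. Tumours were macrodissected 22 weeks and 5 days after initiation and dissociated to a cell suspension, and polyadenylated RNA of the whole suspension was sequenced, so tumour, stromal and immune cells are mixed in each value and fewer cells of a type cannot be told apart from less RNA per cell. No sample without a tumour was analysed here, and the levels below describe tumours only.

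Hox genes encode homeodomain transcription factors that give cells their position along the head-to-tail axis. Within a cluster the genes stand in the order of their paralogue numbers, and genes of the low-numbered groups are active earlier and further towards the head than genes of the high-numbered groups. Members of a paralogue group descend from 1 ancestral gene and often share functions across clusters. The developing lung uses mainly Hoxa and Hoxb genes of the low and middle groups, largely in its mesenchyme, and Hoxa5 is needed for normal development of the trachea and lung. Hox proteins bind DNA together with cofactors of the Pbx, Meis and Pknox families, and Polycomb proteins keep silent clusters closed.

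Total counts were 8151613 to 8799007 per tumour. At this depth 3 counts, taken here as the limit of a count of 0, correspond to 0.330 to 0.370 CPM (the count per 1e+06 counts, scaled for library composition). A member was called detected in a tumour above 3 counts. The 7 alveolar type 2 markers, which mark the surfactant-producing cells that KP tumours resemble, had none at 0 and a mean of 10.76 to 11.80 log2 CPM per tumour. All intervals below are 95% intervals of counting error only, since the reads carried no molecular identifiers.

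Hox expression was low in the KP tumours and was limited almost wholly to Hoxa and Hoxb genes of the paralogue groups 1 to 8. The 38 genes held 292 of 34195162 counts, 8.54 in every 1e+06. Of them 5 were detected in all 4 tumours, namely Hoxa3, Hoxa4, Hoxa5, Hoxa7 and Hoxb4. This is 13.2% of the members, beside 60.7% of the 21226 protein-coding genes in the table. Another 7 were above 3 counts in at least 1 tumour but not in all, 6 had a few counts, and 20 had 0 counts in every tumour, which is 52.6% of the members beside 23.7% of protein-coding genes. A mean of at least 1 CPM was reached by Hoxa5 and Hoxb4 alone, 5.26% of the members beside 60.9% of protein-coding genes. Hoxa5 and Hoxb4 together held 39.4% of all Hox counts.

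**Figure D1:**
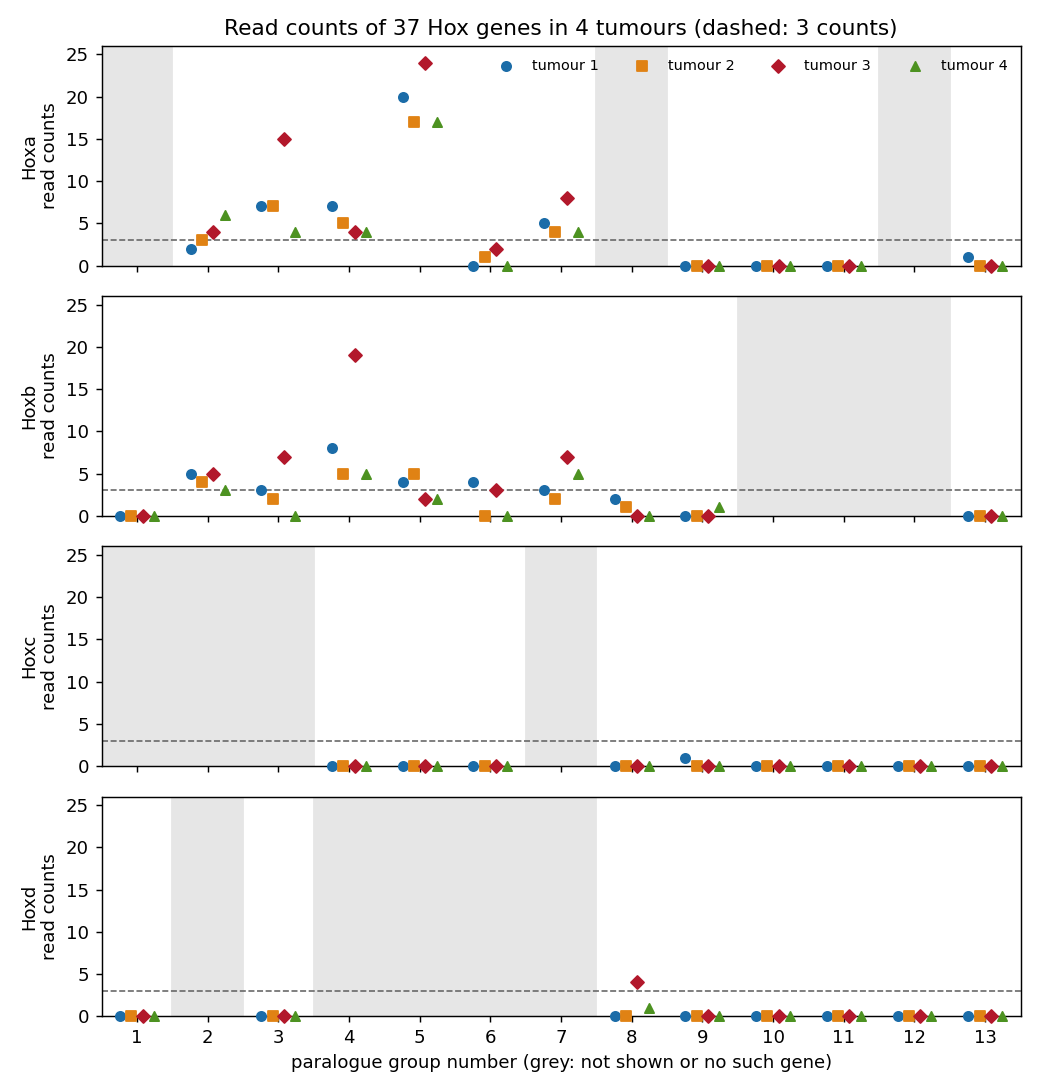
Raw read counts (vertical axis) of 37 Hox genes by paralogue group number (horizontal axis), with 1 panel per cluster and 1 marker per tumour. Counts above the dashed line at 3 lie in groups 2 to 7 of Hoxa and Hoxb, apart from 1 Hoxd8 value of 4, and Hoxa5 is the highest point of each tumour.

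Promoter sequences are shown for 4 members, namely Hoxa5 and Hoxb4 as the genes with the highest levels, and Hoxa7 and Hoxa9 as neighbours on either side of the step from detected to undetected genes in Hoxa. Each runs 5′ to 3′ on the strand of the gene, over the window of 300 bases around the start of the gene in RefSeq (GRCm38.p6), with CpG dinucleotides in capitals. The windows are chr6:52204538-52204837 (minus strand) for Hoxa5, chr11:96318017-96318316 (plus strand) for Hoxb4, chr6:52218524-52218823 (minus strand) for Hoxa7 and chr6:52227321-52227620 (minus strand) for Hoxa9.
Hoxa5: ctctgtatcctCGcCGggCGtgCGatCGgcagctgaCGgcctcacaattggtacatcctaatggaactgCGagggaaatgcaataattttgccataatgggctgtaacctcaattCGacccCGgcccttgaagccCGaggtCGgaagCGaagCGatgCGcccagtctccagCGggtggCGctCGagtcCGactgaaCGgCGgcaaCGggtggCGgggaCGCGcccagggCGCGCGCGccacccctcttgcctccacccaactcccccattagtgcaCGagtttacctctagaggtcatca
Hoxb4: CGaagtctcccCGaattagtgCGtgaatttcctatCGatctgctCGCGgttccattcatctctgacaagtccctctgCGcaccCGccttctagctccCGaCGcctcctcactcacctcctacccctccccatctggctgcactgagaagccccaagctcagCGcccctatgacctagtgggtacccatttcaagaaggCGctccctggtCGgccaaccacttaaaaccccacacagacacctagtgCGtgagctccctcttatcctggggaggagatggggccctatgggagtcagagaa
Hoxa7: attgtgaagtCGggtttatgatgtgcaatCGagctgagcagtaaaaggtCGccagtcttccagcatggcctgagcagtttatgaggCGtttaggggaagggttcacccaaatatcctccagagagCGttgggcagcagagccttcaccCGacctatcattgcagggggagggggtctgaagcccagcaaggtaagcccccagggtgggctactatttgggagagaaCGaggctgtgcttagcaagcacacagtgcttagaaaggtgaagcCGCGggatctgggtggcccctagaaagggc
Hoxa9: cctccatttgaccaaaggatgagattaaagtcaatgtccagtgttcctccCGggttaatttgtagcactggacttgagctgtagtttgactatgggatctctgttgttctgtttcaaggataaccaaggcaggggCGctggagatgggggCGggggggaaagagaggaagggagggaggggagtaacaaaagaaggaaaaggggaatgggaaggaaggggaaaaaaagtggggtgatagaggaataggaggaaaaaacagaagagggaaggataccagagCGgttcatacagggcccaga

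The Hoxa5 window holds 29 CpG dinucleotides, more than 87.1% of the 32851 promoter windows of the same length, and the Hoxb4 window holds 14. Hoxa7 has 9 and Hoxa9 has 4, beside a median of 7 over all promoters. By the gene bounds used for exon lengths (GENCODE M21), the Hoxa5 and Hoxb4 windows span the gene start. The Hoxa7 and Hoxa9 windows lie inside the gene bodies, which start at 52221854 and 52231089. The CpG numbers of these genes are thus not from like positions. Windows were matched for 21 of 38 members. The 9 windows of genes with a count had a median of 14 CpG and a GC content of 58.0%, and the 14 windows of genes at 0 counts, from 12 genes, had medians of 17.5 CpG and 58.3%. The letters AGGTCA, the core of retinoic acid receptor sites, were looked for on both strands and were found once each in the Hoxa5 and Hoxb4 windows, in 6 of the 23 Hox windows, and in 16.3% of all promoters. The Pbx-Hox composite TGATTNAT was in 2 of the 23, Hoxa2 and Hoxd11, beside 3.22% of all promoters, and TATAAA in 3 of the 23 beside 13.6%. Matches of different motifs overlapped in none (0) of the Hox windows, and a match describes the letters only.

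In Hoxa (chromosome 6, 52155590 to 52260880, minus strand, GRCm38), the genes Hoxa2 to Hoxa7 all had counts. Hoxa5 (chromosome 6, 52201754 to 52204587, 1877 exonic bases), the lung developmental regulator, had 20, 17, 24 and 17 counts in tumours 1 to 4. These are 2.20, 1.97, 2.96 and 2.02 CPM, a mean of 2.29 ± 0.458 (SD, n = 4). Its 4 values lay close together, and their spread was within counting noise (chi-square test against Poisson expectations, Benjamini-Hochberg adjusted p = 0.548 over 14225 genes).

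The other Hoxa genes were lower. Hoxa3, which acts in thymus and parathyroid development, had 7, 7, 15 and 4 counts. Hoxa4 had 7, 5, 4 and 4 counts, and Hoxa7 had 5, 4, 8 and 4. All 3 genes were above the limit of 3 counts in each tumour, but by as little as 1 count in some. Hoxa2, a hindbrain and branchial arch gene, had 2, 3, 4 and 6 counts and passed in tumours 3 and 4. Hoxa6 passed in no tumour, with 3 counts in all. The step to the posterior genes was sharp: Hoxa7 had 21 counts over the 4 tumours, whereas Hoxa9, whose gene body lies 1245 bases further along the cluster, had 0. Hoxa10 and Hoxa11 also had 0, and Hoxa13, a distal limb and urogenital gene, had 1. Hoxa9 and Hoxa10 are known for their part in blood progenitors and leukaemia.

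In Hoxb (chromosome 11, 96194316 to 96368256, plus strand), 8 genes in a row, Hoxb2 to Hoxb9, had counts. Hoxb4 (chromosome 11, 96318267 to 96321638, 2566 exonic bases), known for the expansion of blood stem cells, had 8, 5, 19 and 5 counts in tumours 1 to 4. These are 0.880, 0.581, 2.34 and 0.595 CPM, a mean of 1.10 ± 0.841 (SD, n = 4), with tumour 3 above the others. Hoxb2 had 5, 4, 5 and 3 counts, Hoxb3 had 3, 2, 7 and 0, and Hoxb7 had 3, 2, 7 and 5. Hoxb5, which is expressed in lung mesenchyme during branching, had 4, 5, 2 and 2 counts, and Hoxb6 had 4, 0, 3 and 0. Each of these 5 genes was above 3 counts in some tumours and at or below it in others, so their detection is uncertain at this depth. Hoxb8 had 3 counts and Hoxb9 had 1 in all. Hoxb1, the most anterior gene of the cluster, and Hoxb13, a prostate and hindgut gene that lies 74009 bases beyond Hoxb9, had 0.

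Hoxc and Hoxd were close to empty. In Hoxc (chromosome 15, 102921103 to 103036852), 8 of 9 genes had 0 counts and Hoxc9 had 1, in tumour 1. In Hoxd (chromosome 2, 74668310 to 74765142), 7 of 8 genes had 0 counts and Hoxd8 had 0, 0, 4 and 1. The Hoxd8 counts in tumour 3 were the only value above 3 in either cluster. For the 20 genes at 0 in every tumour, the limit of 3 counts over the 4 libraries is 0.0877 CPM. Their exonic sequence was mostly free of other genes on the same strand, with a median of 100% and 18 of 20 over 90%. The exceptions were Hoxd11 at 89.2% and Hoxd3 at 37.7%. Counting genes on either strand, 17 of 20 were over 90% free, with Hoxa11 at 65.0% and Hoxd3 at 37.2%, and reads that fall on 2 genes can be lost in counting. In Hoxa and Hoxb together, 14 of 15 genes of groups 1 to 8 had a count, 284 counts in all, and 2 of 6 genes of groups 9 to 13, with 2 counts in all.

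Levels of different genes were compared per kb of exon, in CPM per kb pooled over the 4 tumours. Hoxa5 was highest at 1.21 (0.960 to 1.52), and its interval overlapped that of no other member. In every tumour it was also above each other member, with 1.17, 1.05, 1.58 and 1.08 CPM per kb. Even so, 52.8% of protein-coding genes had a higher level per kb. Hoxb4 followed at 0.422 (0.297 to 0.581), then Hoxa4 at 0.367 (0.224 to 0.566), Hoxb7 at 0.322 (0.187 to 0.515) and Hoxa2 at 0.247 (0.138 to 0.407), and the intervals of these 4 overlapped. Hoxa7 at 0.213, Hoxa3 at 0.160, Hoxb2 at 0.142 and Hoxb5 at 0.136 came next, and no neighbours in this order differed beyond their counting intervals. Hoxa3 had the second highest Hox count in Hoxa but 6014 exonic bases, so it stands lower per kb. For genes at 0 the limit was between 0.0157 per kb for the long Hoxa9 and 0.0851 for the short Hoxc12.

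**Figure D2:**
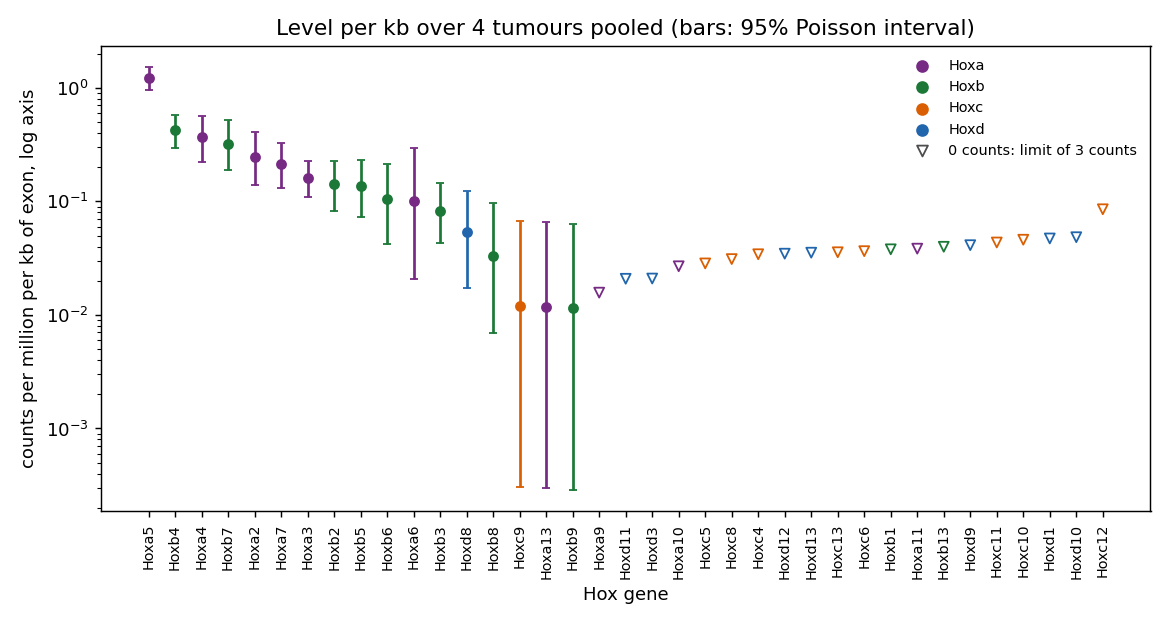
Level of 37 Hox genes in CPM per kb of exon on a log axis, pooled over the 4 tumours, in falling order, with 95% Poisson intervals as bars and colours for the cluster. Hoxa5 stands alone at 1.21, the next 16 genes run on without a gap between intervals, and open triangles give the limit of 3 counts for the 20 genes at 0.

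Hoxa held 179 of the 292 Hox counts (61.3%, Wilson interval 55.6 to 66.7) and Hoxb 107 (36.6%, 31.3 to 42.3). By tumour, the counts were 45, 38, 59 and 37 for Hoxa and 29, 19, 43 and 16 for Hoxb. Summed per kb, Hoxa was above Hoxb in 4 of 4 tumours, by 1.03 ± 0.37 (SD, n = 4) on the log2 scale. The exact two-sided sign-flip permutation test gave p = 0.13, the smallest that 4 tumours allow, and no comparison within tumours could pass 0.05. The difference rested on Hoxa5, since without it the log2 difference was 0.02 and Hoxa was higher in 2 of 4 tumours (exact permutation p = 1.00). Hoxc held 1 count, a ratio to Hoxa of 179 to 1 with an exact interval of 31.7 to 7109. Hoxd held 5, and Hoxa exceeded it 35.8 times (15.1 to 112) and Hoxb 21.4 times (8.89 to 67.2). With the lower cluster set to 3 counts where it had fewer, Hoxa and Hoxb were each above Hoxc and Hoxd in 4 of 4 tumours, and the adjusted p over the 5 pairs with a value was 0.13 in the exact permutation test for each. Hoxc and Hoxd were both at or under 3 counts in at least 3 tumours and were not compared.

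By paralogue group, counts were highest in groups 5 and 4. Groups 4 to 8 held 204 counts (69.9%), groups 1 to 3 held 85 (29.1%) and groups 9 to 13 held 3 (1.03%). Group 5 alone held 91, group 4 held 57, group 3 held 45 and group 7 held 38. The middle groups 6 and 8 were low, with 10 and 8 counts, and groups 10, 11 and 12 held 0. Summed per kb, the 8 genes of groups 1 to 3 were below the 14 of groups 4 to 8 in 4 of 4 tumours, with a log2 difference of -2.0 ± 0.19 (SD, n = 4), and the share of groups 4 to 8 among Hox counts was between 68.9% and 70.7% in every tumour. The log2 difference was -1.20 without Hoxa5, -1.28 in CPM not per kb and -0.52 as a mean of log2 levels over members, each in 4 of 4 tumours. Groups 4 to 8 exceeded groups 9 to 13 by a count ratio of 68.0 (22.9 to 332), and groups 1 to 3 exceeded them by 28.3 (9.37 to 140.1). The exact permutation p was 0.13 for each of the 3 comparisons and 0.13 after adjustment.

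**Figure D3:**
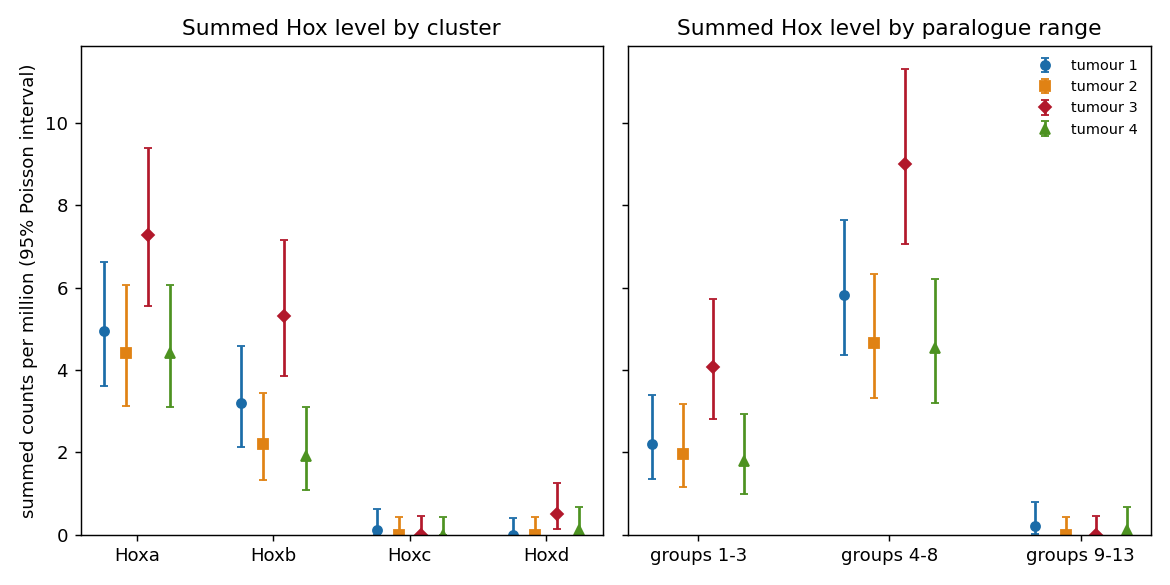
Summed CPM of the Hox genes by cluster (left) and by paralogue range (right) in each tumour, with 95% Poisson intervals. Hoxa lies between 4.40 and 7.28 CPM and Hoxb between 1.9 and 5.31, tumour 3 is highest in both, and Hoxc, Hoxd and groups 9 to 13 lie at or near 0.

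Tumour 3 had the most Hox transcripts. The summed Hox level was 8.25, 6.62, 13.1 and 6.42 CPM in tumours 1 to 4, and the interval of tumour 3 (10.7 to 15.8) lay above those of the others, which reached at most 10.3. Hoxa3, Hoxa5, Hoxa7 and Hoxb4 were highest in tumour 3, 4 of the 5 genes detected in all tumours. The count was 6 of the 10 members with a count in every tumour and 9 of the 18 with any count, and among all genes with a mean of at least 1 CPM, a filter that 2 members pass, 30.1% were highest in tumour 3. Hoxa4 was highest in tumour 1. Among the members counted for tumour 3, Hoxb2 stood there by CPM alone, with 5 counts in tumours 1 and 3 alike. Hoxa6 stood there with 2 counts. Spread beyond counting noise could be tested for Hoxa5 and Hoxb4, the members with a mean of at least 1 CPM. Hoxb4 was called (adjusted p = 0.00174, chi-square test, Benjamini-Hochberg over all tested genes) and Hoxa5 was not, which is 1 of 2 beside 76.7% of the 14225 genes tested. The biological coefficient of variation (edgeR, over tumours) was 54.1% for Hoxb4 and 33.6% for Hoxa5, beside a median of 25.7%. It is a tagwise estimate drawn towards other genes, so the value for Hoxa5 does not show spread beyond counting noise. Without tumour 3, Hoxb4 fell below the 1 CPM needed for the test and no member was called. No tumour stood apart for either gene by Dixon's ratio, beside 5.86% of all tested genes.

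Markers of several non-epithelial cell types were also highest in tumour 3. For smooth muscle, mean log2 CPM was 4.20, 4.02, 5.12 and 3.84 in tumours 1 to 4. Of its genes, 4 of 5 were highest in tumour 3 (Cnn1 among them below 1 CPM and not in the mean). For macrophages it was 3.76, 4.10, 5.20 and 4.31, with 5 of 5 genes, and for all leukocytes 4.29, 4.54, 5.50 and 4.67, with 5 of 5. Tumour 3 had the highest mean in each of these lists, and Des, the smooth muscle exception, was highest in tumour 1. T cell markers were at 0.23, 0.31, 1.88 and 0.02, with 5 of 6 genes highest in tumour 3. Cd3e and Cd3d among them were below 1 CPM and not in the mean, and the exception, Lck, was lowest there. B and plasma cell markers were at 2.08, 3.03, 4.37 and 3.13, with 3 of 5 genes highest in tumour 3. Of these, Ms4a1 and Mzb1 were below 1 CPM and not in the mean. Jchain had 31.6 CPM in tumour 3 against 3.52 to 5.46 in the others, whereas Cd79b and Cd79a were highest in tumour 4. Endothelial markers were at 4.82, 4.86, 5.26 and 4.77, with 4 of 7 genes highest in tumour 3. Fibroblast markers were at 5.32, 5.33, 5.38 and 4.96, with 3 of 8 genes highest in tumour 3 (Dcn, Pdgfra and Tcf21, the last below 1 CPM and not in the mean), 4 highest in tumour 1 (Col1a1, Col1a2, Col3a1 and Pdgfrb), and Lum lowest in tumour 3. Alveolar type 2, epithelial and mesothelial lists were not highest in tumour 3, and no gene of these 10 lists was at 0 in all tumours. The part of other cell types in the Hox levels was not tested.

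**Figure D4:**
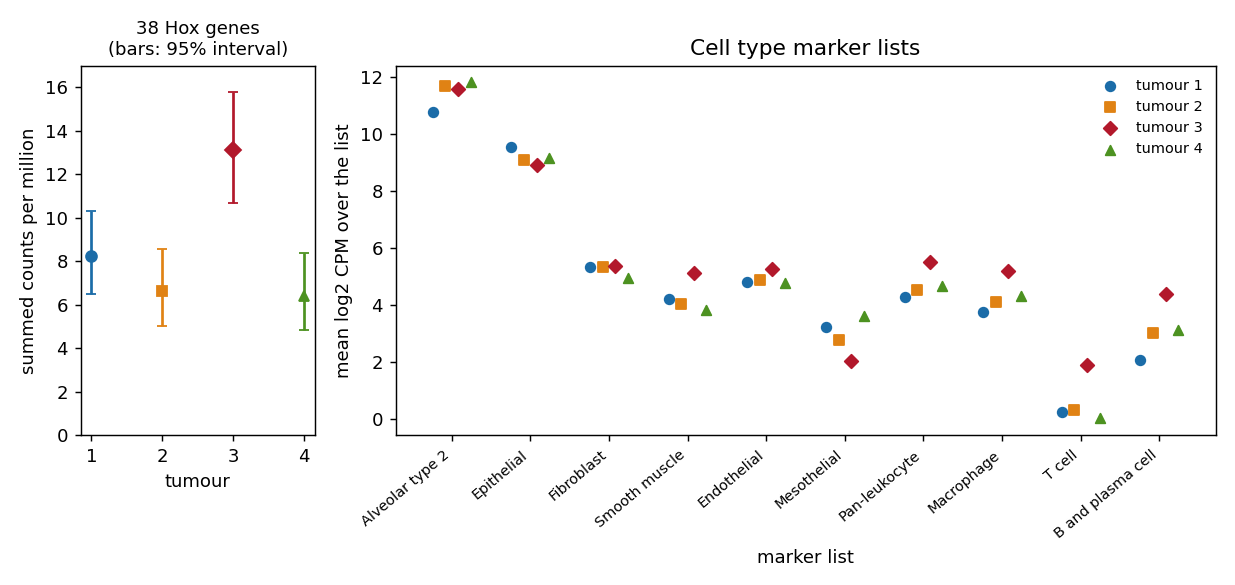
Left, summed CPM of the 38 Hox genes per tumour with 95% Poisson intervals. Right, mean log2 CPM of 10 cell type marker lists in the same tumours, in which tumour 3 is the highest point for the fibroblast, smooth muscle, endothelial, leukocyte, macrophage, T cell and B and plasma cell lists.

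Apart from 1 pseudogene, other transcripts inside the clusters had few counts. Of 39 other genes annotated within the cluster spans, 10 had a count, 7 of them in Hoxa. The antisense RNA Hoxaas3 had 3, 0, 5 and 1 counts and Hotairm1, at the anterior end of Hoxa, had 2, 1, 2 and 0. Hotair, the long noncoding RNA of Hoxc, had 0; these 3 were chosen after their values were seen. Hoxa3, Hoxa4, Hoxa7, Hoxb2 and Hoxb3 share exonic bases with RNAs such as these, and 47.1% of the exonic bases of Hoxb3 and 72.9% of those of Hoxa3 were free of them. The strand setting of the counting is not given in the sources used here, so reads of such pairs may not have been told apart. The 6 microRNA genes of the clusters, which belong to the miR-10, miR-196 and miR-615 families, had 0 counts in libraries that select polyadenylated RNA. The single gene with a mean of at least 0.5 CPM was Gm11539 (chromosome 11, 96248633 to 96249189), a processed pseudogene between Hoxb9 and Hoxb13. It had 145, 87, 72 and 105 counts, more in total (409) than all Hox genes together. A processed pseudogene can share reads with the gene it was copied from, so its level is uncertain.

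The nearest protein-coding genes beside the clusters ran from 0 to 66.6 CPM. On the anterior side of Hoxa, Skap2 had 66.0 ± 12.6 CPM (SD, n = 4), and beyond Hoxa13 the homeobox gene Evx1 had 0 counts in every tumour. Beside Hoxd, Mtx2, a mitochondrial outer membrane gene, had 66.6 ± 2.30 CPM, 60.7 kb from the anterior end, and Evx2 had 0 counts 8.75 kb from the other. Beside Hoxc, Smug1, a DNA repair glycosylase, had 25.4 ± 2.21 CPM, 116 kb from the anterior end. Calcoco1 had 61.7 ± 6.96 CPM, 199 kb from the other end. Of these nearest genes, expressed ones stood on both sides of Hoxc but only on the anterior side of Hoxd. The next protein-coding genes beyond Evx2 and Evx1 were expressed. Lnpk had 22.8 CPM, 88.9 kb from Hoxd, and Hibadh had 332 CPM, 285 kb from Hoxa. Beside Hoxb, the neighbours were low, with 0.299 CPM for Skap1 and 0.485 for Ttll6. Of the Cdx genes, which activate Hox genes in the embryo, Cdx2 and Cdx4 had 0 counts and Cdx1 had 1, in tumour 3.

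The Hox cofactors ranged from a mean of 0.750 to 79.6 CPM, and none of the 9 was at 0. Pbx2 had 93.4, 67.5, 70.7 and 86.9 CPM in tumours 1 to 4. Pknox1 had a mean of 25.8 ± 3.73 CPM and Pbx3 of 24.3 ± 6.05 (SD, n = 4). Each of these genes had a mean above the summed level of all 38 Hox genes, 8.59 ± 3.10 CPM. Per kb of exon, Pbx2 was at 21.9 CPM, above Hoxa5, whereas Pbx4 at 0.427, Meis2 at 0.263, Meis1 at 0.229 and Pknox2 at 0.0726 were below it. Among the Meis genes, Meis3 had 5.83, 8.48, 9.87 and 11.1 CPM, Meis2 had 1.98, 2.90, 4.44 and 3.33, and Meis1 had 2.53, 1.51, 3.58 and 2.02. Of the 9 cofactors, 3 were highest in tumour 3, namely Meis1, Meis2 and Pknox2. This is 33.3%, near the 30.1% among all genes with a mean of at least 1 CPM. Pbx2, Pbx3 and Pbx4 were highest in tumour 1, and Meis3 in tumour 4. Pbx4 and Pknox2 were below 1 CPM, with means of 0.946 and 0.750. Of the 7 cofactors tested, 6 varied beyond counting noise, 85.7% beside 76.7% of all tested genes, and Meis1 did not pass (adjusted p = 0.0566, chi-square test).

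**Figure D5:**
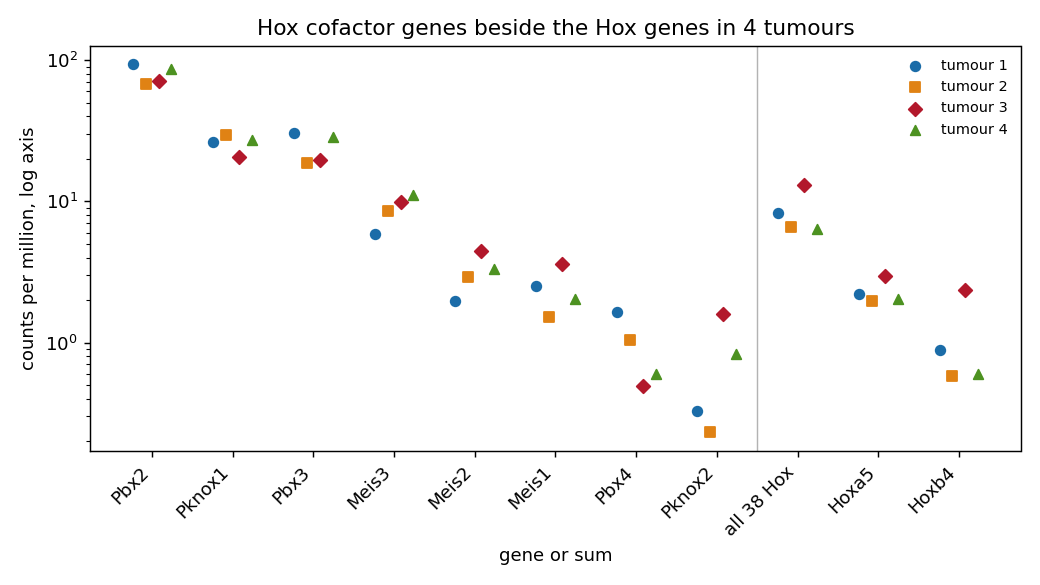
CPM on a log axis of 8 Hox cofactor genes, and to the right of the line of the sum of 38 Hox genes, Hoxa5 and Hoxb4, with 1 marker per tumour. Pbx2, Pknox1 and Pbx3 lie above the Hox sum in every tumour, and Hoxa5 and Hoxb4 lie at the level of Meis1 and Pbx4.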

How the data were processed

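A stranded TruSeq mRNA kit and 500 ng of RNA per tumour gave the libraries. Per the methods and the submitters' processing notes, single-end reads were trimmed by the authors (Cutadapt, 1.4.2 in the notes), mapped by HISAT2 to mm10, and assigned to Ensembl genes by featureCounts 1.4.4. The strand setting and annotation release are not given in the sources used here. The deposited count tables hold raw counts per gene, and all 152 Hox values were equal between the combined and single-tumour tables. A second deposited table holds log2 values made by the authors with TMM and voom, and it served only as an alternative.

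CPM was computed from the counts with TMM factors (edgeR 4.0.16, R 4.3.3), and log2 CPM with 0.5 added to each count. Per-kb levels used exonic bases in GENCODE M21 (GRCm38). The spread over tumours was tested for genes with a mean of at least 1 CPM. The test was a chi-square test with 3 degrees of freedom and Benjamini-Hochberg adjustment at 0.05. It was tried on simulated Poisson counts, which checks the calculation and not how the test behaves on real counts. A tumour stood apart above a Dixon ratio of 0.829. Clusters and paralogue ranges were compared within tumours by exact sign-flip permutation, with sums under 3 counts set to 3 counts. The labels do not say that the tumours came from separate mice, so p-values measure only the spread between these 4 samples. Members at a mean of 1 CPM or more are given in every tumour, others with over 3 counts by name, and cofactor, Cdx and Evx genes by name. Of the Polycomb, MLL and retinoic acid lists the highest and lowest 2 are named, and marker lists are means over their genes with at least 1 CPM. Values of some single genes and 1 allele are not reported here. The members and the lists were chosen with earlier results of these data known. Alternatives were DESeq2 1.42.0 size factors, library size alone, other filters and lengths, and leaving out each tumour.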

Additional observations from a re-analysis of the deposited data

Results flagged for a closer look

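Of 60 sets of 4 tumour values examined, 2 had a tumour far from the others, and chance gives about 1 in 20. The fibroblast markers had a gap of 0.853 of their whole range, with tumour 4 low at 4.96 against 5.32 to 5.38 mean log2 CPM. The T cell markers had a gap of 0.844, with tumour 3 high at 1.88 against 0.02 to 0.31. No Hox gene, cluster sum or difference between clusters was among them.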

How the results depend on the processing

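Detected members numbered 12 when over 3 counts in at least 1 tumour sufficed and 1 (Hoxa5) at 10 or more counts in all, and 5 to 6 with any tumour left out. Members varying beyond counting noise numbered 4 of 18 without the filter on low values (Hoxa3, Hoxb3, Hoxb4 and Hoxd8, beside 53.5% of all genes). They numbered 0 to 2 of 1 to 3 tested with a tumour left out (beside 62.3% to 71.9% of all genes), 0 of 1 without tumour 3. A biological coefficient of variation above 20% was reached by 2, Hoxa5 and Hoxb4 (beside 79.0% of all tested genes), by an estimate drawn towards other genes. A tumour apart was found for 3 members without the filter, Hoxa13, Hoxb9 and Hoxc9, each with 1 count in all. The 5 cluster and 3 range differences had the same sign in 71 of 71 alternatives. Of these, 32 left out 1 tumour and could not change the sign, since each difference had the same direction in 4 of 4 tumours. Differences from Hoxc, Hoxd or groups 9 to 13 set 1, 5 or 3 counts against 85 or more, so their sign could hardly change either. The Hoxa minus Hoxb difference was 0.02 without Hoxa5, with Hoxa higher in 2 of 4 tumours. With members free of exonic overlap alone, groups 1 to 3 kept 2 genes, both at 0 counts, so no difference from groups 9 to 13 is given, and the Hoxa minus Hoxb difference was 0.71 on the log2 scale with 4 and 7 genes. The mean of log2 levels over members gave 0.29 for the same difference. At a mean of 10 CPM no member is left to test, and Dixon's ratio has no limit for 3 tumours. No paired analysis was possible because there is 1 group. Depth also limits these results: with so few counts, differences between most members were not detectable.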

Other observations

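Genes for proteins that keep Hox clusters silent or active were broadly expressed as RNA, and protein was not measured. All 11 genes of Polycomb repressive complex 2, which methylates histones over silent genes, were above 1 CPM, from Phf19 (3.72 CPM) and Phf1 (42.6) to Rbbp4 (248) and Rbbp7 (297), and 8 of 11 varied beyond counting noise beside 76.7% of all tested genes. All 16 genes of complex 1, which compacts such chromatin, were also above it, from Cbx8 (6.84) and Pcgf1 (8.92) to Phc3 (133) and Cbx6 (191), and 16 of 16 were called. The 9 MLL complex genes, which maintain active Hox genes, ran from Men1 (34.9) and Dpy30 (38.6) to Kmt2a (118) and Hcfc1 (146), and 9 of 9 were called. Calls depend on depth as well as on spread. Median SD of log2 CPM over tumours was 0.19 for complex 2, 0.28 for complex 1 and 0.17 for the MLL genes. All tested genes had a median of 0.290.

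Retinoic acid induces anterior Hox genes in the embryo. Of 17 genes of its pathway, 12 were tested and 10 were called, 83.3% beside 76.7% of all tested genes. Crabp1 had 0 counts and Cyp26c1 0.0275 CPM, whereas Dhrs3, which reduces retinal, had 66.1 ± 11.2 CPM (SD, n = 4).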
